A study of Mus musculus with 12 samples.

Results

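The genes described here encode the respiratory chain and ATP synthase of the mitochondrion, whose parts come from both the nuclear and the mitochondrial genome. They were 111 of the 41325 genes in the deposited tables. The rule goes by name and chromosome and uses no measured value, but it was set with earlier results of these data known. The 98 nuclear genes were chosen by name, as the families Nduf, Sdh, Uqcr, Cox4 to Cox8 and Atp5 without pseudogenes. They comprised 36 genes of complex I, 4 of complex II, 8 of complex III, 20 of complex IV, 18 of complex V and 12 assembly factors. The 13 mitochondrial genes were the mt-Nd, mt-Cytb, mt-Co and mt-Atp genes of chromosome MT. RNA was sequenced from IMG, a mouse microglial line that was immortalised, of the C57Bl6/J strain, wild type and all of the same passage. Microglia are the macrophages that live in the brain. The groups were cells given fAb for 8 h, cells given oAb for 8 h and scramble controls at 8 h, with 4 libraries in each. Both preparations are amyloid beta, the peptide of the plaques of Alzheimer's disease. The design text pairs the word oligomeric with fAb and fibrillar with oAb, against what the letters would read, so the groups are named here only as labelled.

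Complexes I, III and IV pump protons as electrons pass from NADH to oxygen, and complex V, the ATP synthase, uses the gradient. Complex II, succinate dehydrogenase, is the member that is built from nuclear genes alone, while the other complexes need subunits from both genomes. The mitochondrial genes are read as long joint transcripts that are cut into separate mRNAs, rRNAs and tRNAs, so the levels of single mitochondrial mRNAs also depend on their stability. In macrophages, inflammatory activation is known for a turn to glycolysis, for nitric oxide, which blocks complex IV, and for itaconate, which inhibits complex II.

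The libraries held 13638721 to 18124419 counts, and 13449 to 13948 genes had a count. Of the 13 microglia and macrophage markers, 11 reached 1 normalised CPM (CPM, counts scaled to library size after TMM adjustment over the 12 libraries) in fAb, 11 in oAb and 12 in scramble cells. Of these markers Tmem119 had no count in any oAb library. Among the 12 markers tested, 2 were higher and 7 lower with fAb, and 2 and 6 with oAb. Of all genes tested, 27.6% were higher and 28.8% lower with fAb, and 25.2% and 27.0% with oAb. Among markers of other cells, Rbfox3, Snap25 and Syt1 of 5 for neurons, Aqp4 of 4 for astrocytes, Mog of 4 for oligodendrocytes and Cldn5 of 3 for endothelium had no count in any library. The neuron list summed to 10.0 to 12.3 normalised CPM in fAb, 10.6 to 12.8 in oAb and 0.941 to 3.51 in scramble, and its tested gene, Map2, was higher (log2 fold change 2.15 and 2.24). The oligodendrocyte list summed to 46.1 to 51.6 in fAb, 43.4 to 49.1 in oAb and 91.1 to 124.7 in scramble, and its tested gene, Mbp, was lower (-1.18 and -1.31). The fibroblast list summed to 1.88 to 2.78 in fAb, 2.55 to 3.88 in oAb and at most 0.105 in scramble, and its tested gene, Dcn, was higher (6.80 and 6.94). Astrocyte and endothelium lists stayed under 1 in every library. Summed over the microglia list, the libraries held 2971 to 3395 normalised CPM in fAb, 3160 to 3557 in oAb and 3554 to 4441 in scramble cells, and the part of these lists in the results was not tested. In bulk RNA, fewer cells of a type and less RNA per cell cannot be told apart. The labels do not say whether each library had its own culture. The p-values therefore refer to the spread among these libraries, which may be technical.

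Scramble library 3 stood apart in these genes (libraries carry the replicate numbers of the labels). Cytosolic ribosomal proteins took 11.9% of its counts and 7.01% to 7.61% of those of scramble libraries 1, 2 and 4, and 88 of the 90 nuclear members that could be tested were higher in it than the mean of the other controls, by a median of 0.83 on the log2 scale. Of the 13 mitochondrial members 6 were higher in it, with a median of -0.18. A further split crosses the groups: the fAb libraries, oAb libraries 3 and 4 and scramble library 1 had 17.5% to 38.5% of the counts of Timm23 and its near-identical copy Gm10273 at Timm23, and oAb libraries 1 and 2 and scramble libraries 2, 3 and 4 had 94.6% to 98.3%. These are called the Gm10273 set and the Timm23 set; no label gives a batch. Calls that library 3 or the sets change are named below. With the library set as a term of the fit, 5 of the 10 mitochondrial members called with fAb kept the call, and of the 36 nuclear ones Ndufaf7 and Ndufaf4 did. With oAb all 7 mitochondrial members kept it, and 7 of the 16 nuclear ones did, among them Atp5s, Cox7a2l, Ndufa6, Ndufaf4, Ndufaf7 and Sdha. Of all genes tested, 28.8% were lower with fAb and 16.5% with the term, and with oAb 27.0% and 26.7%.

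Summed over the genes of each genome, both parts of the chain took a smaller share of the counts after either preparation. The nuclear members made up 0.845%, 0.855%, 0.873% and 0.867% of all counts in the fAb libraries, 0.911%, 0.934%, 0.873% and 0.887% in the oAb libraries and 1.11%, 1.22%, 1.69% and 1.20% in the scramble libraries. The mitochondrial members made up 2.58%, 2.81%, 2.75% and 2.68% in fAb, 2.602%, 2.65%, 3.198% and 2.85% in oAb and 4.70%, 4.83%, 4.07% and 4.69% in scramble. For both sums every treated library lay below every control, and scramble library 3 was the highest control in the nuclear sum and the lowest in the mitochondrial sum. These are shares of raw counts, and on the scale of normalised CPM, where libraries are matched on most genes, the differences were smaller. There the mitochondrial sum was 28194 ± 1320 in fAb, 30343 ± 3490 in oAb and 40865 ± 805 in scramble (SD, n = 4), and the nuclear sum was 8968 ± 381, 9662 ± 178 and 11816 ± 3261 in the same order. Without scramble library 3 the scramble nuclear sum was 10205 ± 611, so that the lowest scramble library, at 9522 normalised CPM, lay within the range of the oAb libraries, 9518 to 9899, and above that of the fAb libraries, 8621 to 9309.

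The ratio of mitochondrial to nuclear counts, which does not depend on how libraries are scaled, was 3.05, 3.28, 3.15 and 3.09 in fAb, 2.86, 2.84, 3.66 and 3.22 in oAb and 4.22, 3.97, 2.41 and 3.90 in scramble. The fAb and oAb libraries lay below 3 of the controls, and scramble library 3 lay below all of them. The mean was 3.14 ± 0.10 in fAb, 3.14 ± 0.39 in oAb and 3.63 ± 0.82 in scramble (SD, n = 4), and 4.03 ± 0.17 in the 3 scramble libraries other than library 3. The sums and the ratio carry no test, since the genes were chosen with results of these data known.

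**Figure D1:**
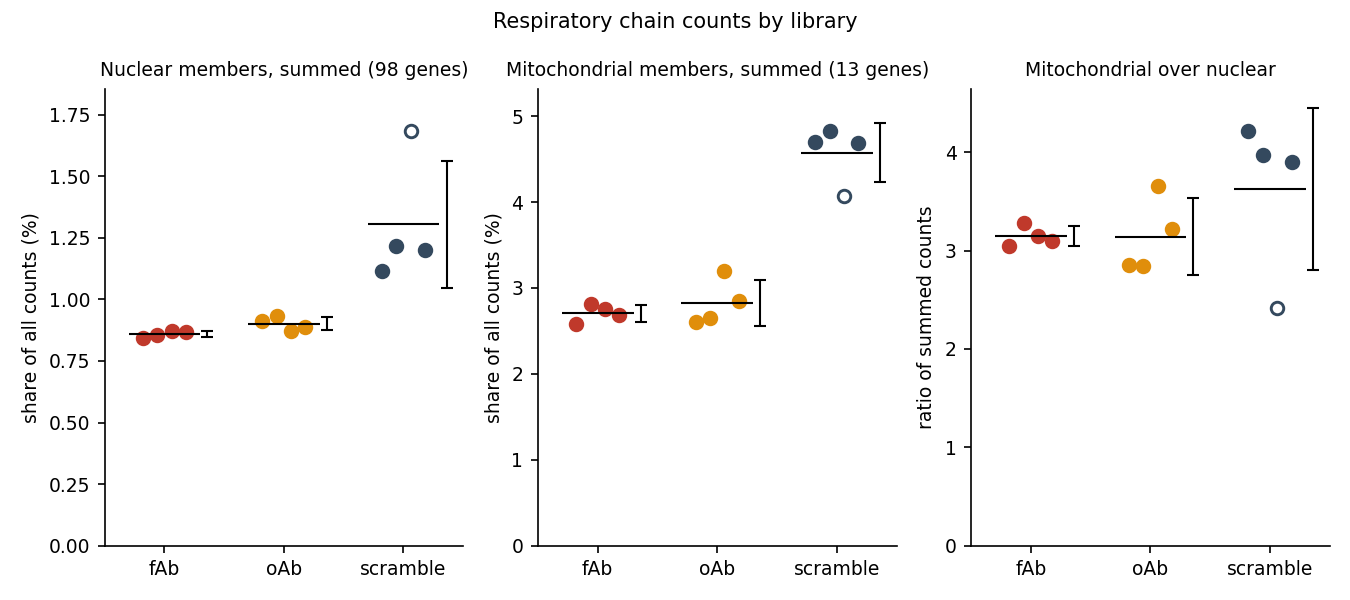
Respiratory chain counts in each library: the nuclear sum and the mitochondrial sum as percent of all counts, and their ratio. Points are libraries, lines are means, bars beside them are SDs (n = 4), and the open point is scramble library 3. Every fAb and oAb library lies below the controls in both sums, and the open point is the highest control in the first panel and the lowest in the other two.

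Per length of transcript, the mitochondrial mRNAs were far more abundant than the nuclear ones. Among members that could be tested, the median of the group means in the authors' TPM, which is scaled by length, was 4748 for the 13 mitochondrial genes and 112 for the 90 nuclear genes in fAb, 4557 and 117 in oAb, and 9747 and 169.8 in scramble. Assembly factors were the least abundant class, with medians of 12.3 TPM in fAb, 15.2 in oAb and 25.3 in scramble. The highest mitochondrial level was that of mt-Atp6, a subunit of the proton channel of ATP synthase, at 21899 ± 977 TPM in fAb, 22843 ± 3266 in oAb and 30838 ± 6235 in scramble (SD, n = 4), though 99.5% of its 50-base words also lie in nuclear copies. The lowest was mt-Nd6, the complex I gene on the other strand of the mitochondrial genome, at 64.1 ± 30.4, 52.0 ± 24.1 and 69.5 ± 37.8 TPM in the same order.

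All mitochondrial mRNAs that passed the test were lower. In fAb against scramble 10 of 13 passed the test and all 10 were lower, at a median log2 fold change of -0.51 over the 13, where 28.8% of the 11074 genes tested were called lower and the median of all genes was -0.04. In oAb against scramble 7 were lower and 0 higher, at a median of -0.44, where 27.0% of 11033 genes were called lower and the median was -0.07. The 7 called with oAb were among the 10 called with fAb, in comparisons that share their controls. With the library set as a term the fAb calls of mt-Cytb, mt-Nd1, mt-Nd2, mt-Nd3 and mt-Nd4 held, and those of mt-Co1, mt-Co2, mt-Co3, mt-Atp6 and mt-Nd5 were lost (adjusted p 0.075 to 0.28), at estimates of -0.25 to -0.51. In 9 mitochondrial genes the fAb libraries all lay below the scramble libraries, as did 28.0% of all genes, and in 6 the oAb libraries did, as did 25.0%. The calls came from edgeR's quasi-likelihood test with Benjamini-Hochberg adjustment over all genes tested and a threshold of 0.05.

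The largest fall was in mt-Cytb (chromosome MT, 14145 to 15288), which encodes cytochrome b, the mitochondrial subunit of complex III. It had 1817, 2019, 1901 and 1961 normalised CPM in the fAb libraries, 1799.6, 1852, 2227 and 1966 in the oAb libraries and 3629.5, 3661, 3988 and 3499 in the scramble libraries. Treated and control libraries were far apart, and none of its 50-base words lies in another gene. The log2 fold change was -0.90 ± 0.09 with fAb and -0.91 ± 0.11 with oAb (SE; adjusted p = 3.7e-05 and 9.1e-05). It also lost ground within the mitochondrial pool, taking 6.83% ± 0.26 of mitochondrial mRNA counts in fAb, 6.47% ± 0.16 in oAb and 9.05% ± 0.65 in scramble (SD, n = 4), where the highest treated library held 7.10% and the lowest control 8.38%.

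Among the mitochondrial genes of complex I, the NADH dehydrogenase, mt-Nd4 had 1163, 1267, 1368 and 1304 normalised CPM in fAb, 1233, 1253, 1475 and 1316 in oAb and 2172, 2291, 1991 and 2306 in scramble. The groups did not overlap, and the log2 fold change was -0.74 ± 0.10 with fAb and -0.73 ± 0.11 with oAb (adjusted p = 0.00014 and 0.0003). For mt-Nd3 the fold changes were -0.67 and -0.58, for mt-Nd2 -0.65 and -0.47, and for mt-Nd1 -0.51 and -0.37, all past the test. The oAb calls of mt-Nd1 and mt-Nd2 rested on few libraries, and that of mt-Nd1 was lost without scramble 2 or oAb 1, 2 or 4 (adjusted p 0.053 to 0.064). That of mt-Nd2 was lost without scramble 2 or oAb 1, 2 or 4 as well (0.050 to 0.054). Without scramble library 3 the 4 genes of this paragraph had adjusted p values of 2.5e-06, 1.4e-05, 4.0e-06 and 1.6e-05 with fAb and 1.0e-05, 0.0022, 0.00022 and 0.0017 with oAb, in the order named.

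The short genes mt-Nd4l and mt-Atp8 depended on scramble library 3. The counts of mt-Nd4l were 148, 162, 187 and 174 normalised CPM in fAb, 169, 172, 205 and 179.7 in oAb and 299, 318, 127 and 339 in scramble. Library 3 was the lowest of all 12 libraries, below the treated ones, while the other controls were the highest. The gene was not called with all libraries (log2 fold change -0.65 with fAb, adjusted p = 0.061; -0.57 with oAb, 0.097), and without library 3 it fell in both (-0.88, 6.4e-06; -0.81, 7.0e-06). Likewise mt-Atp8, a small ATP synthase subunit whose gene overlaps mt-Atp6, had 820.5, 788, 943 and 834 normalised CPM in fAb, 661, 715, 1081 and 851 in oAb and 1234, 787, 247 and 1011 in scramble. It was not called, at 0.09 with fAb and 0.01 with oAb, and its sign turned without library 3 (-0.21 and -0.29) and with upper quartile scaling (-0.10 and -0.15).

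The call of mt-Nd5, a proton-pumping subunit of complex I, was marginal. It had 1029, 1106, 1198 and 1202 normalised CPM in fAb, 998, 1028, 1322 and 1194 in oAb and 1651, 1568, 1107 and 1748 in scramble, and scramble library 3 lay among the treated libraries. The log2 fold change was -0.38 ± 0.14 with fAb (adjusted p = 0.045) and -0.42 ± 0.16 with oAb (0.055). The fAb call was lost when any library but scramble 3 was left out (0.079 to 0.13) and with the replicate block (0.071), and both comparisons passed without scramble library 3 (9.7e-05 and 0.00082). For mt-Nd6 the libraries ranged from 79 to 329 counts and from 5.48 to 20.002 normalised CPM in all groups together, and the 95% interval of the fold change reached from -1.11 to 1.08 with fAb and from -1.34 to 0.80 with oAb, so that both intervals held 0 and the fold change of mt-Cytb.

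Complex IV, cytochrome c oxidase, has its catalytic core encoded in the mitochondrion. The most counted of all members, mt-Co1, had 6796, 7449, 7281 and 7566 normalised CPM in fAb, 6772, 7081, 8343 and 7564 in oAb and 9996, 10046, 10252 and 10036 in scramble. The 4 controls lay close together and above every treated library, and the fold change was -0.43 ± 0.09 with fAb and -0.44 ± 0.11 with oAb (adjusted p = 0.0034 and 0.0078). mt-Co2 fell by more, with -0.72 and -0.57, or -0.59 and -0.45 without scramble library 3. mt-Co3 fell with fAb (-0.39, adjusted p = 0.01) and was not called with oAb (-0.26, 0.13), nor was mt-Atp6 (-0.23, 0.2), which fell with fAb (-0.34, 0.024). The fAb call of mt-Atp6 was lost without scramble 4 or fAb 1, 2 or 4 (0.062 to 0.086). Counts of mt-Co1, mt-Co2, mt-Co3, mt-Atp6, mt-Nd3, mt-Nd4 and mt-Nd4l, 7 of the 13 mitochondrial members, are uncertain, since 20% or more of their 50-base words also occur in nuclear copies, while mt-Cytb, mt-Nd1, mt-Nd6 and mt-Atp8 share none.

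The mitochondrial rRNAs, which lie upstream of the mRNAs on the same transcript, moved the other way. mt-Rnr1, the small-subunit rRNA, had 714, 628, 628 and 692 normalised CPM in fAb, 613, 696, 847 and 612 in oAb and 469, 380.0, 555 and 368 in scramble. Every treated library lay above every control, and the log2 fold change was 0.62 ± 0.14 with fAb and 0.65 ± 0.16 with oAb (adjusted p = 0.0047 and 0.0087). mt-Rnr2, the large-subunit rRNA, rose by 0.45 and 0.47 (0.012 and 0.036), where oAb library 4, at 644 normalised CPM, lay below scramble library 1 at 676. Fold changes here and below are on the log2 scale. Its oAb call was lost without scramble 2 or 4 or oAb 2 or 3 (0.078 to 0.099). The rRNA calls depended on the sets. With the library set as a term both were lost with fAb, mt-Rnr1 at 0.56 (adjusted p = 0.11) and mt-Rnr2 at 0.20 (0.40), and with oAb mt-Rnr1 held at 0.61 (0.018) and mt-Rnr2 was lost (0.42, 0.053). Within the Timm23 set and within the Gm10273 set neither was called with oAb (0.057 to 0.66), within the Gm10273 set mt-Rnr1 was called with fAb and mt-Rnr2 was not (0.00093 and 0.15), and upper quartile scaling ended the mt-Rnr2 calls with fAb and oAb (0.11 and 0.15). Per 100 counts of mitochondrial mRNA there were 4.52 to 5.95 rRNA counts in fAb, 4.03 to 5.35 in oAb and 2.06 to 2.85 in scramble. The kit selects RNA with poly(A) tails, so these are the rRNA molecules that such a selection keeps, and whether tails differed between groups was not tested.

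**Figure D2:**
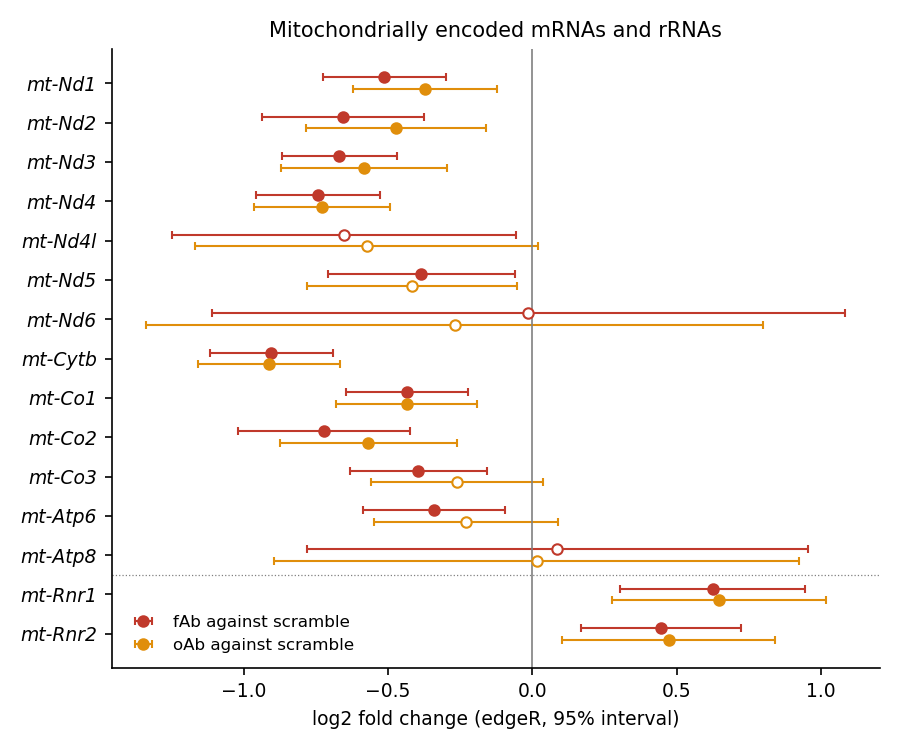
Log2 fold change of the 13 mitochondrially encoded mRNAs and, under the dotted line, the 2 rRNAs, for fAb and oAb against scramble. Points are edgeR estimates from 4 against 4 libraries, bars are 95% intervals, and filled points passed the adjusted threshold of 0.05. The mRNAs called lie left of 0, down to -0.90 with fAb and -0.91 with oAb for mt-Cytb, and both rRNAs lie right of it.

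Nuclear members were tested in 90 of 98 cases. Of the other 8, Cox6b2, Cox7b2, Cox8b and Cox8c had no count in any library, Ndufa4l2 had 1, Cox4i2 had 4, and Cox6a2 and Atp5o_1, a row that overlaps Donson, had 80 and 50. In fAb against scramble 34 of the 90 were lower and 2 higher, with a median log2 fold change of -0.47, where 28.8% of all genes tested were lower and 27.6% higher. In oAb against scramble 15 were lower and 1 higher, with a median of -0.38, where 27.0% were lower and 25.2% higher. All fAb libraries lay below all scramble libraries in 38 members, as they did in 28.0% of all genes, and all oAb libraries did in 19, against 25.0%. Under upper quartile scaling the all-gene median was -0.23 with fAb and -0.24 with oAb. With it 64 nuclear members were lower and 1 higher with fAb, where 39.4% of all genes were lower and 20.5% higher. With oAb it gave 41 lower and 1 higher, where 36.4% of all genes were lower and 19.3% higher. With the replicate number as a block 37 members were lower and 1 higher with fAb, where 28.5% and 28.3% of all genes were. Estimates below 0, called or not, were found for 84 of 90 members with fAb and 85 of 90 with oAb. Over all genes tested these were 5790 of 11074 and 5966 of 11033, and for cytosolic ribosomal proteins 77 of 80 in both. Without scramble library 3 the members below 0 were 72 of 90 with fAb and 71 of 91 with oAb. All genes below 0 were then 5782 of 11169 and 5906 of 11148.

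The nuclear median depended on scramble library 3 far more than the mitochondrial one did. Without that library the nuclear median was -0.20 with fAb and -0.13 with oAb, and the mitochondrial median was -0.55 and -0.45. The counts without it were 41 nuclear genes lower and 5 higher with fAb, where 33.8% of all genes were lower and 34.2% higher, and 21 lower and 3 higher with oAb, where 32.9% were lower and 31.4% higher. With fAb, the number lower was 52 without scramble library 1, 16 without fAb library 1 and 19 without fAb library 2. With oAb it was 31 without scramble library 1 and 4 or 5 without any of the oAb libraries. The shares of all genes in these fits are not given, so whether members moved apart from other genes cannot be read. When the library set was a term of the fit, 1 nuclear gene was lower and 1 higher with fAb, where 16.5% and 18.2% of all genes were, and 6 were lower and 1 higher with oAb, where 26.7% and 25.3% of all genes were. The term leaves a single scramble library beside the 4 fAb libraries in their set. With the term and without scramble library 3, 13 nuclear genes were lower and 3 higher with fAb (27.8% and 30.3% of all genes), and 27 were lower and 5 higher with oAb (36.4% and 34.6%).

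**Figure D3:**
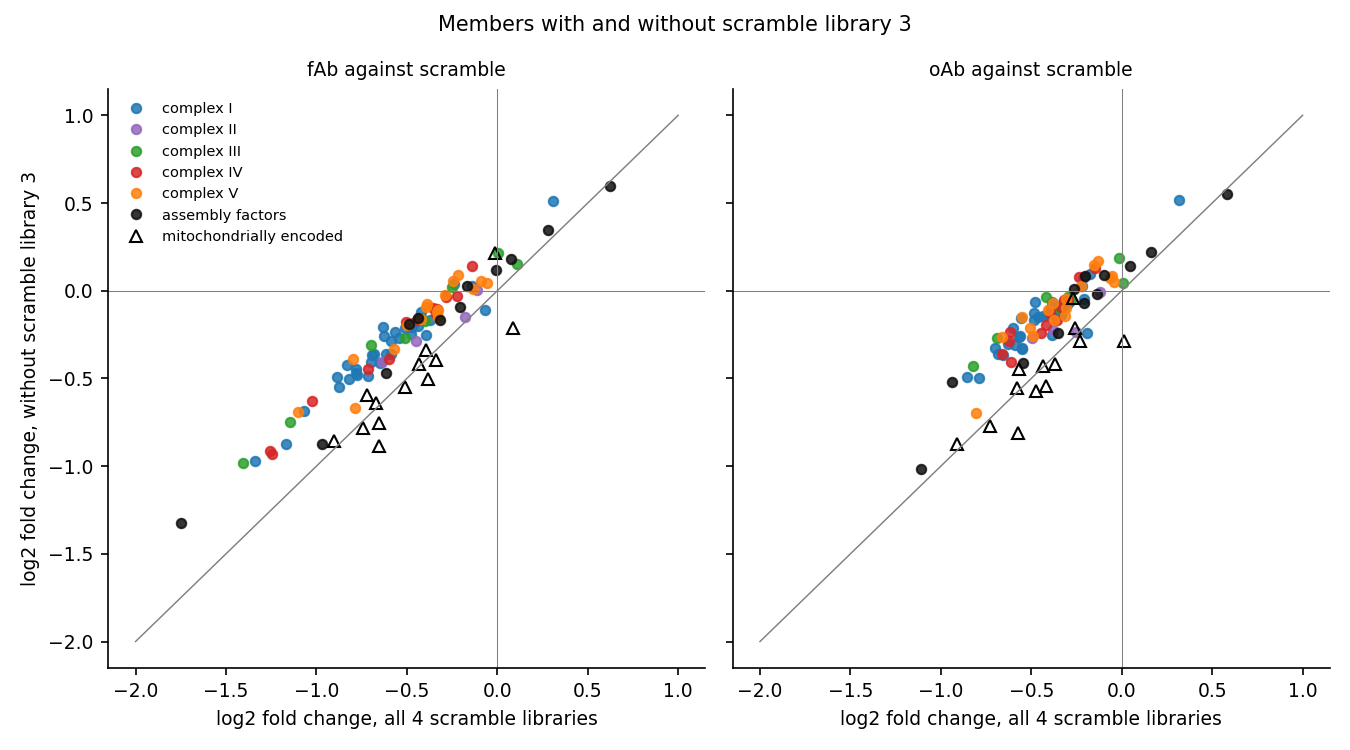
Log2 fold change of each tested member against scramble with all 4 control libraries (x axis) and without scramble library 3 (y axis), coloured by complex, with fAb left and oAb right. Most nuclear members lie above the diagonal, closer to 0 on the y axis, so that their median goes to -0.20 and -0.13, while most mitochondrial genes (triangles) lie near or under the diagonal and mt-Nd6 lies above it, at -0.01 and 0.22 with fAb.

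Scramble library 3 was rich in short and in GC-rich transcripts. Over all genes tested, its level relative to the other controls had a median of 0.74 on the log2 scale for genes whose longest annotated transcript has up to 1000 bases, 0.47 from there to 2000 bases, 0.09 to 4000 bases and -0.44 above. The nuclear members are short, with a median longest transcript of 1216 bases against 3352 for all genes tested. Their excess in library 3 was 0.88 for the 38 members of up to 1000 bases, 0.74 for the 29 of up to 2000 bases and 0.70 for the 23 longer ones. In these classes the median fold change with fAb was -0.55, -0.49 and -0.40 with all libraries, and -0.22, -0.20 and -0.17 without library 3. By base composition, all genes tested lay at -0.55 for transcripts of up to 40% G and C, -0.20 to 50%, 0.24 to 60% and 0.61 above. The mitochondrial mRNAs, with a median of 784 bases and 37.1% G and C, lay at a median of -0.18 in library 3, and the nuclear members have a median of 49.7% G and C. Length and base composition were not separated.

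**Figure D4:**
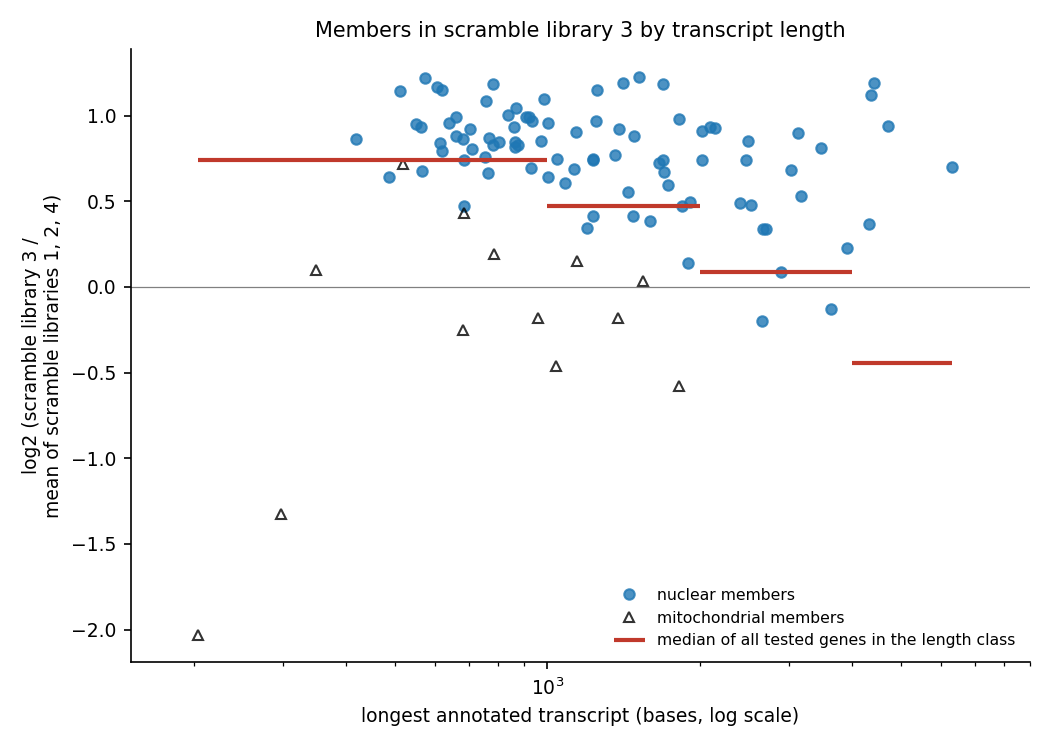
Level of each member in scramble library 3 relative to the mean of scramble libraries 1, 2 and 4 (log2) against the length of its longest annotated transcript (log axis). Circles are nuclear members, triangles mitochondrial ones, and red lines are medians of all tested genes in 4 length classes. The red lines fall from 0.74 for the shortest class to -0.44 for the longest, and 88 of 90 circles lie above 0. Ndufs1 (2661 bases, -0.20) and Ndufaf4 (3632 bases, -0.13) lie below it.

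With fAb 12 of the 34 nuclear falls held with all libraries, without scramble library 3, and without it with the library set as a term. They included Ndufv1, Ndufv2, Ndufv3, Ndufa6 and Ndufb5 of complex I, Sdhb of complex II, Cox7a2l and Cox8a of complex IV, Atp5s of complex V and the assembly factors Ndufaf7 and Sdhaf4, and both genes that rose, Ndufaf4 and Sdhaf2, held likewise. With oAb 14 of the 15 falls held so, among them Ndufv1, Ndufv2, Ndufv3, Ndufa6, Ndufb5 and Ndufb11, Sdha, Sdhb and Sdhc, Cox7a2l, Atp5g2, Atp5s and Ndufaf7. All 10 mitochondrial falls with fAb and all 7 with oAb held in the same 3 fits. With the set term and all libraries fewer held, 1 of 34 nuclear and 5 of 10 mitochondrial falls with fAb, and 6 of 15 and 7 of 7 with oAb. In that fit Ndufv2, Sdhb, Cox7a2l and Atp5s were at -0.35, -0.26, -0.37 and -0.65 with fAb (adjusted p = 0.32, 0.49, 0.3 and 0.078). Over all genes, 3184 were lower with fAb and 1824 with the set term, and with oAb 2984 and 2947. Scramble library 1 is the only control in the set of the fAb libraries, so the fAb estimates with the set term rest on that control. The fit with the set term and without library 3 was added after seeing the data. How many calls held among all genes was not counted, and the difference between the genomes was not tested.

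Complex I holds the largest number of nuclear members. With fAb 18 of 36 were lower and 0 higher, at a median of -0.60, where 28.8% of all genes were lower. With oAb 7 were lower and 0 higher, at a median of -0.42, a share below the 27.0% of all genes. Without scramble library 3 the medians were -0.28 and -0.14. The library set as a term left 0 lower with fAb, at a median of -0.13, where 16.5% of all genes were lower. With oAb that term left 2 lower, at a median of -0.35, where 26.7% of all genes were lower. Ndufv2, a subunit of the arm that takes electrons from NADH, had 73.1, 75.9, 78.3 and 75.6 normalised CPM in fAb, 87.9, 87.0, 87.8 and 84.3 in oAb and 100.3, 109, 183 and 118 in scramble. Each of the groups lay apart, with fAb lowest and scramble library 3 far above the other controls, and the fold change was -0.72 ± 0.18 with fAb (adjusted p = 0.0084) and -0.55 ± 0.18 with oAb (0.026). Without library 3 it was -0.48 (0.00013) and -0.33 (0.0015), and the oAb call was lost when any oAb library was left out (0.057 to 0.066).

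Ndufa6, an accessory subunit of complex I, had 20.8, 19.99, 24.7 and 23.1 normalised CPM in fAb, 34.2, 33.98, 22.8 and 27.0 in oAb and 33.96, 44.9, 78.8 and 46.5 in scramble. The fAb libraries lay below all controls, while oAb libraries 1 and 2 lay just above the lowest control, scramble library 1. The fold change was -1.17 ± 0.24 with fAb and -0.79 ± 0.25 with oAb (adjusted p = 0.0026 and 0.026). The oAb call was lost without oAb 3 or 4 (0.074 and 0.070) and with the replicate block. The fAb call was lost with the library set as a term, where the lowest estimate of any complex I gene was -0.57.

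All 4 subunits of complex II are members. Sdhb, the iron-sulfur subunit, had 90.6, 85.4, 99.99 and 103 normalised CPM in fAb, 108, 108, 106 and 105 in oAb and 117, 132, 216 and 138 in scramble, and all treated libraries lay below the controls. The fold change was -0.64 ± 0.19 with fAb and -0.49 ± 0.18 with oAb (adjusted p = 0.017 and 0.04), or -0.40 and -0.27 without scramble library 3. Sdhc, a membrane anchor, fell, at -0.45 and -0.38 (0.022 and 0.041), or -0.29 and -0.23 without that library. Sdha, the catalytic subunit that binds succinate, fell with oAb (-0.26, 0.039) and was not called with fAb (-0.18, 0.07), where it passed without scramble 2 (-0.23, 0.046) or 3 (-0.15, 0.022); Sdhd, the other anchor, was called in neither (-0.11 and -0.12). The oAb calls of Sdha, Sdhb and Sdhc were each lost on leaving out single libraries, oAb 1, 2 or 4 and scramble 1 or 4 for Sdha (0.068 to 0.12), any oAb library or scramble 4 for Sdhb (0.056 to 0.090), and any oAb library or scramble 2 or 4 for Sdhc (0.056 to 0.095). The fAb call of Sdhc was lost without fAb 1 or 3 (0.059 and 0.060).

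In complex III, 3 of 8 nuclear members were lower with fAb, where 28.8% of all genes were, and 0 with oAb by edgeR. They were Uqcrfs1, which carries the Rieske iron-sulfur centre, and the small subunits Uqcrq and Uqcr11. The call of Uqcrfs1 (-0.51, adjusted p = 0.048) was lost with the replicate block (0.056) and with the set term (-0.07, 0.87). Uqcrq had 29.5, 19.5, 31.2 and 34.9 normalised CPM in fAb, 64.8, 69.6, 25.1 and 33.4 in oAb and 30.7, 69.0, 137 and 75.2 in scramble. Here the libraries followed the sets and not the groups alone: oAb libraries 3 and 4 and scramble library 1 lay with the fAb libraries, and the other oAb and scramble libraries were at least 64.8. The fold change of -1.41 with fAb (adjusted p = 0.014) became -0.04 with the library set as a term, where the call was lost (0.95). The same held for Uqcr11 in complex III (-1.15 and -0.28), for Cox5b, Cox6a1 and Cox8a in complex IV (-1.26 and -0.16, -1.02 and -0.12, -1.24 and -0.26), for the stalk subunit Atp5d in complex V (-1.10 and 0.11), and for the assembly factor Ndufaf8 (-1.75 and 0.07), each fold change being given without and with the term. The Atp5d call was also lost without scramble 3 or 4 or fAb 1 or 2 (0.052 to 0.068). With oAb none of these 7 genes was called with all libraries, and without scramble library 1 all but Uqcrq passed (0.017 to 0.036).

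The sets also differed in base composition. Among genes whose longest transcript has over 60% G and C, scramble library 1 lay below scramble libraries 2 and 4 with a median log2 ratio of -0.60, and oAb libraries 3 and 4 below oAb libraries 1 and 2, with -0.48, where the medians over all genes were 0.04 and 0.00. Of the 90 nuclear members 3 are in this class. Within the Gm10273 set, which compares the 4 fAb libraries with scramble library 1 alone, 12 nuclear members were lower and 4 higher with fAb, and 12 mitochondrial members were lower, where 26.4% of all genes were lower and 29.9% higher. In the same set oAb libraries 3 and 4 against that control had 12 nuclear members lower and 12 higher, and 9 mitochondrial members lower and 1 higher, where 31.6% of all genes were lower and 32.5% higher. Within the Timm23 set, oAb libraries 1 and 2 against 3 controls, 2 nuclear and 3 mitochondrial members were lower, where 16.2% of all genes were. In the fits within the Gm10273 set the lone control is assumed to vary like the other libraries.

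**Figure D5:**
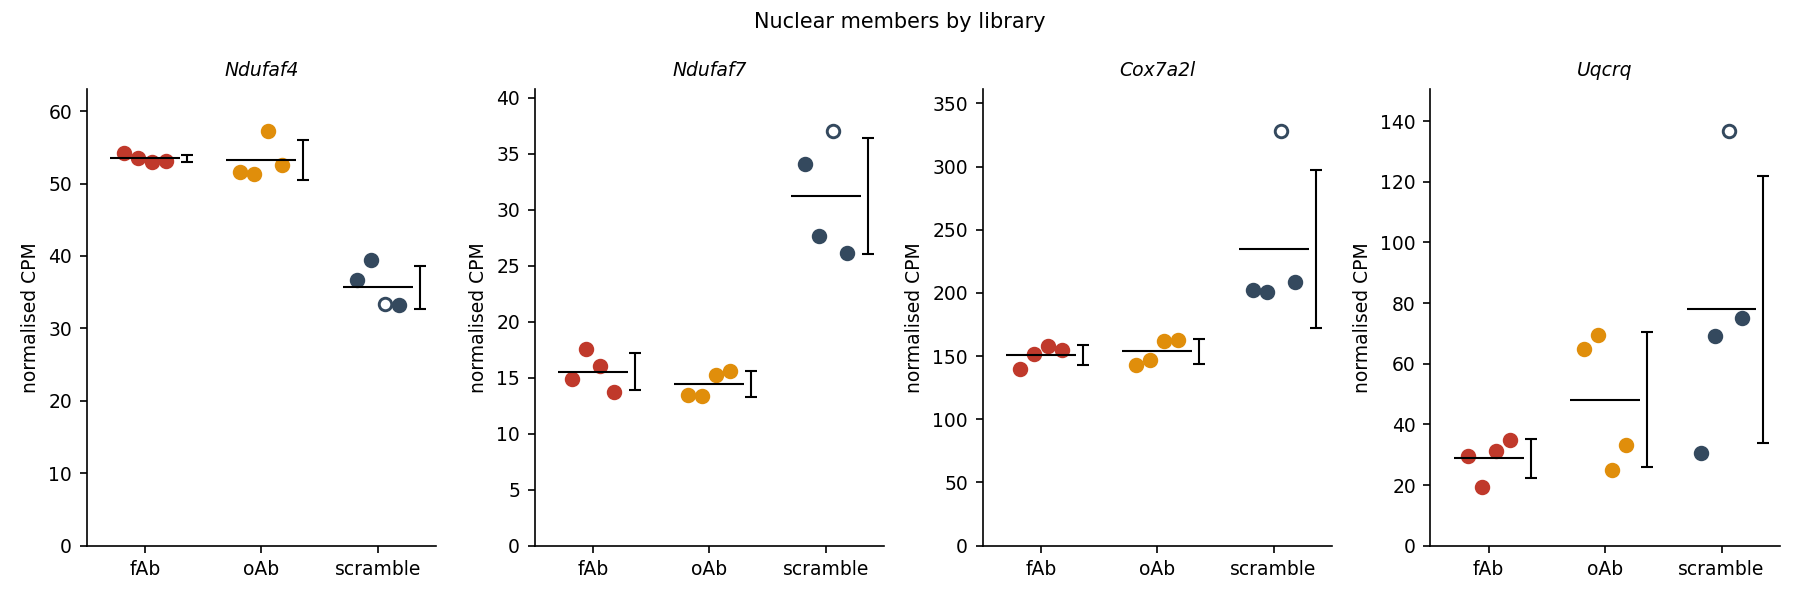
Normalised CPM of 4 nuclear members in each library. Points are libraries, lines are means, bars beside them are SDs (n = 4), and the open point is scramble library 3. Ndufaf4 lies above the controls in every treated library, Ndufaf7 and Cox7a2l lie below them, and Uqcrq splits the oAb libraries, with libraries 3 and 4 at 25.1 and 33.4 and libraries 1 and 2 at 64.8 and 69.6.

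Complex IV has 13 nuclear members that could be tested, and 4 were lower with fAb and 1 with oAb, against 28.8% and 27.0% of all genes. Both included Cox7a2l, which has been linked to supercomplexes of complexes III and IV, a role that was not tested in these cells. It had 139.8, 152, 158 and 155 normalised CPM in fAb, 143, 147, 162 and 162 in oAb and 202, 201, 329 and 209 in scramble. The treated libraries lay below all controls, with fold changes of -0.60 ± 0.17 and -0.61 ± 0.16 (adjusted p = 0.013 and 0.012), or -0.39 (0.00013) and -0.41 (0.00031) without scramble library 3. Its ubiquitous relative Cox7a2 was not called (-0.14 and -0.15, and 0.14 and 0.13 without library 3), and Cox7a1, the form of heart and skeletal muscle, averaged 3.16 TPM in fAb, 3.99 in oAb and 5.63 in scramble. Cox4i1, the common form of subunit 4, was not called (-0.44 and -0.40; adjusted p = 0.091 and 0.13), although it passed without scramble library 3 with fAb at -0.17 (0.018) and without scramble library 1 at -0.55 (0.046). Cox6b1 was not called either (-0.28 and -0.33).

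Ndufa4, a complex IV subunit despite its name, has a paralogue, AA467197 (also known as Nmes1), that inflammatory stimuli are known to induce. AA467197 had no count in any scramble library, 39 to 63 counts in the fAb libraries and 45 to 64 in the oAb libraries. Against a floor of 3 counts over the scramble group it was at least 66.4-fold higher with fAb and at least 83.2-fold higher with oAb. It stayed rare, at 7.13 ± 1.43 TPM in fAb and 8.45 ± 1.56 in oAb, against 229.99 ± 23.3 and 209 ± 3.27 for Ndufa4 in the same groups (SD, n = 4). Ndufa4 itself was not called, at -0.33 ± 0.18 with fAb (adjusted p = 0.14) and -0.42 ± 0.17 with oAb (0.07). With oAb it passed without scramble library 3 (-0.19, 0.019) and without scramble library 4 (-0.50, 0.048).

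In complex V, 4 of 17 nuclear members were lower with fAb and 2 with oAb, both shares below those of all genes, 28.8% and 27.0%. Atp5s, coupling factor B and a gene of low level, had 2.49, 3.01, 2.75 and 2.55 normalised CPM in fAb, 2.43, 2.62, 3.02 and 2.86 in oAb and 4.402, 4.82, 5.94 and 4.09 in scramble. All treated libraries lay below all controls, with fold changes of -0.79 ± 0.16 and -0.81 ± 0.17 (adjusted p = 0.0028 and 0.0029). Of the genes for the ring subunit c, which encode the same mature protein, Atp5g2 fell with fAb (-0.57, 0.031) and oAb (-0.49, 0.046), while Atp5g1 (-0.22 and -0.13) and Atp5g3 (-0.42 and -0.22) were not called. Atp5g2 shares 38.3% of its 50-base words with other genes, and its fAb call was lost without fAb 1, 2 or 3 (0.055 to 0.085) and its oAb call without scramble 4 or any oAb library (0.064 to 0.11). Atp5g3 passed with fAb without scramble library 1 (-0.58, 0.019).

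Assembly factors, which help to build the complexes without staying in them, moved in both directions. Ndufaf4 (chromosome 4, 24898083 to 24905001), an assembly factor of complex I, had 54.2, 53.5, 53.0 and 53.1 normalised CPM in fAb, 51.6, 51.4, 57.3 and 52.6 in oAb and 36.7, 39.5, 33.3 and 33.2 in scramble. Every treated library lay above every control, and scramble library 3 was not apart. The fold change was 0.62 ± 0.09 with fAb and 0.58 ± 0.10 with oAb (adjusted p = 0.00023 and 0.00068), and it is the nuclear member called higher in both comparisons. Ndufaf7 (chromosome 17, 78937136 to 78948052), a methyltransferase needed to assemble complex I, had 14.8, 17.5, 16.1 and 13.7 in fAb, 13.5, 13.4, 15.3 and 15.6 in oAb and 34.1, 27.7, 37.1 and 26.1 in scramble. It was lower in every treated library, with fold changes of -0.97 ± 0.14 with fAb and -1.11 ± 0.14 with oAb (0.00036 and 0.00011).

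The factors for complex II also diverged. Sdhaf2, which attaches the FAD cofactor to Sdha, rose with fAb (0.28 ± 0.10, adjusted p = 0.031) and was not called with oAb (0.16, 0.22), where upper quartile scaling gave -0.01. Its fAb call was lost with that scaling (0.45), with the replicate block (0.052) and when any library but scramble 3 was left out (0.055 to 0.094), and both comparisons passed without scramble library 3 (0.35, 0.0014, and 0.22, 0.038). Sdhaf4, which protects and delivers the FAD-bound Sdha, had 5.28, 6.197, 4.59 and 5.47 normalised CPM in fAb, 4.21, 7.28, 5.77 and 5.91 in oAb and 8.39, 8.19, 10.9 and 6.51 in scramble. All fAb libraries and all but 1 oAb library lay below the controls. The fold change was -0.61 with fAb (adjusted p = 0.015) and -0.55 with oAb (0.048), and the oAb call was lost without scramble 1, 2 or 3 or oAb 1, 3 or 4 (0.069 to 0.12).

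Promoters were looked at because NRF1 and the ETS factor GABP are known regulators of nuclear respiratory genes. In the RefSeq sequences from 250 bases before to 50 bases after each gene start (GRCm38.p6), 77 nuclear members had an entry. The NRF1 element, searched as GCGCANGCGC on both strands, was in 20 of the 77 member genes (26.0%), and the ETS element CCGGAAG was in 21 (27.3%). Of all 32851 promoter entries, 1512 (4.60%) held the NRF1 element and 2910 (8.86%) the ETS element. Members were counted by gene, with a match in any entry, and all promoters by entry, so these shares are unlike measures. Of the 20 with an NRF1 element 5 were lower and 1 higher with fAb (median -0.41), against 25 and 1 of the 54 tested without it (median -0.55). With oAb these were 4 and 1 of 20 (-0.34), against 8 and 0 of 54 (-0.39). For the ETS element the counts with fAb were 8 lower and 1 higher of 21 (-0.44), against 22 and 1 of 53 (-0.51), and with oAb 1 and 0 of 21 (-0.38), against 11 and 1 of 53 (-0.37). A match describes the letters of the window and is no evidence of binding.

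The promoters of 4 named members that moved the same way in both comparisons, with and without scramble library 3, are printed to show this contrast, and they were picked after their values were seen. Capitals mark the NRF1 element, and none of the 4 windows holds CCGGAAG on either strand. Ndufaf4 rose and Ndufa6 fell, and both carry the element, 113 bases before the start in Ndufaf4 and just after the start in Ndufa6. Ndufaf7 and Cox7a2l fell and hold no match. The windows are chr4:24897833-24898132 on the plus strand, chr15:82354242-82354541 on the minus strand, chr17:78936885-78937184 on the plus strand and chr17:83514284-83514583 on the minus strand, in the order shown, each read 5′ to 3′.
Ndufaf4: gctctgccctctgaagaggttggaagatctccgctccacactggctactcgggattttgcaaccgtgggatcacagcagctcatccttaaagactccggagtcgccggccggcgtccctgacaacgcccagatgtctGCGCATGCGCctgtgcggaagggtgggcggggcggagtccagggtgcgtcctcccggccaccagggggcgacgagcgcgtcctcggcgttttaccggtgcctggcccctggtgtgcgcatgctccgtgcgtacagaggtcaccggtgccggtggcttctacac
Ndufa6: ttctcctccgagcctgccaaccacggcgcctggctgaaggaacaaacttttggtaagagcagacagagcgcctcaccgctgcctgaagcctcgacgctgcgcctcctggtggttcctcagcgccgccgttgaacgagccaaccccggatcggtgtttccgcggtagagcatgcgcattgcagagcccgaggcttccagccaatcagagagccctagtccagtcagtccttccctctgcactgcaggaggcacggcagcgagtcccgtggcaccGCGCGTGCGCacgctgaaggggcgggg
Ndufaf7: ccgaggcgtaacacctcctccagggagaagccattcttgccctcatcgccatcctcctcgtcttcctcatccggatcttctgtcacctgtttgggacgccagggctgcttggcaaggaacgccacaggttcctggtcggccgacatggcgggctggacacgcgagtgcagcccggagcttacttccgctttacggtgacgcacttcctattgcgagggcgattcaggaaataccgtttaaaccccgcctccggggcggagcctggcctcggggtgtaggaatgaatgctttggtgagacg
Cox7a2l: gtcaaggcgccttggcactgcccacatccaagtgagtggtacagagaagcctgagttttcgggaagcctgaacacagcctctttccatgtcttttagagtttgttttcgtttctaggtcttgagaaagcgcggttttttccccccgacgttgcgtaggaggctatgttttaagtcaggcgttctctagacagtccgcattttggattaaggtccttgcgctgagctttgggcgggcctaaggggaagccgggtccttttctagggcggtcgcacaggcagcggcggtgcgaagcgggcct

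Between the preparations no member was called. In fAb against oAb edgeR called 0 of 10878 genes (0.0%), while 1391 genes (12.8%) had an unadjusted p under 0.05, and DESeq2 called 18 of 12004 (0.15%), none of them a member. The median log2 fold change was -0.13 over the 90 nuclear members, -0.11 over the 13 mitochondrial members and -0.01 over all genes, and 26 nuclear and 3 mitochondrial members had an unadjusted p under 0.05, all lower in fAb. In 13 nuclear members and 1 mitochondrial member all fAb libraries lay below all oAb libraries, as they did in 3.25% of all genes, and in no member did they all lie above, against 3.05%. The adjusted p of the members was 0.375 or more.

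The widest gaps followed the library sets. Ndufaf8 had 3.304, 2.62, 4.06 and 4.44 normalised CPM in fAb, 8.28, 9.60, 3.74 and 4.26 in oAb and 3.56, 11.3, 21.9 and 13.1 in scramble, and oAb libraries 3 and 4 lay among the fAb libraries. The fold change of fAb against oAb was -0.84 (95% interval -1.57 to -0.11) for Ndufaf8 and -0.75 (-1.62 to 0.13) for Uqcrq. Of the mitochondrial genes mt-Nd2 was at -0.22 (-0.38 to -0.05, adjusted p = 0.38), and the widest estimate upwards was mt-Nd6 at 0.22 (-0.87 to 1.32). Within the Gm10273 set, 4 fAb against 2 oAb libraries, the medians were -0.09 for nuclear and -0.22 for mitochondrial members, with 0 of 11026 genes called (0.0%) by edgeR.

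Other genes of the same pathway were read from the same fits, where 27.6% of all genes were higher and 28.8% lower with fAb, and 25.2% and 27.0% with oAb. Among 12 chain genes outside the naming rule 2 were higher and 3 lower in each comparison. Gpd2, which feeds electrons from glycerol 3-phosphate into the chain, had 134, 136, 138 and 144 normalised CPM in fAb, 125, 116, 145 and 141 in oAb and 48.3, 42.9, 27.6 and 45.5 in scramble. It was higher in every treated library, with fold changes of 1.79 ± 0.16 with fAb and 1.69 ± 0.17 with oAb (adjusted p = 1.4e-05 and 3.6e-05). Etfdh, which feeds in electrons from fatty acid oxidation, fell, at -0.73 and -0.80 (0.00036 and 0.00016). Cyc1, the cytochrome of complex III, was not called (-0.20 and -0.09), and Cycs, cytochrome c, was at 0.28 (0.32) and 0.56 (0.052) with all libraries and rose without scramble library 3, by 0.58 and 0.86 (0.00011 and 1.3e-06).

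Of 41 other assembly factors tested, 4 were higher and 11 lower with fAb, and 4 and 9 with oAb, so that the lower ones made up no larger share than among all genes. Ttc19, which serves complex III, had 15.6, 17.9, 15.6 and 14.3 normalised CPM in fAb, 14.3, 14.5, 17.2 and 16.3 in oAb and 5.76, 5.24, 5.14 and 5.21 in scramble, a rise of 1.61 ± 0.11 and 1.54 ± 0.12 (adjusted p = 3.0e-06 and 4.2e-06) with groups far apart. Coa5, named for cytochrome oxidase assembly, rose by 1.33 and 1.29 (1.1e-05 and 2.3e-05). Bcs1l, which inserts the Rieske protein into complex III, fell, at -1.01 and -1.13 (0.00029 and 0.00041). These 3 kept their direction and call without scramble library 3.

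Of the genes that copy, read and process mitochondrial DNA 9 were higher and 11 lower of 38 with fAb and 8 and 11 of 37 with oAb, shares close to those of all genes (27.6% and 28.8%, and 25.2% and 27.0%). Polrmt, the mitochondrial RNA polymerase, had 19.0, 11.4, 16.8 and 16.2 normalised CPM in fAb, 24.2, 25.1, 12.9 and 17.2 in oAb and 22.8, 36.995, 40.6 and 40.1 in scramble. It was lower, at -1.11 with fAb and -0.82 with oAb (adjusted p = 0.002 and 0.02), but it followed the library sets, with oAb libraries 1 and 2 above scramble library 1, and the fAb call was lost with the library set in the fit (0.15). Its oAb call was lost without scramble 3 or 4 or oAb 4 (0.056 to 0.062). Polg, the catalytic subunit of the DNA polymerase, fell, at -0.78 and -0.71 (8.9e-05 and 0.00031), and its partner Polg2, at -1.10 and -1.54 (0.0035 and 0.00043). Pnpt1, a ribonuclease subunit, rose by 1.30 and 1.22 (0.00051 and 0.0005), and Fastkd3 by 1.04 and 0.93 (3.4e-05 and 7.7e-05). Tfam, which packs and transcribes mitochondrial DNA, and Lrpprc, which stabilises mitochondrial mRNAs, were not called (-0.05 and -0.20, -0.12 and -0.20), although Lrpprc passed without scramble library 3, narrowly with fAb (-0.15 and -0.24; adjusted p = 0.04997 and 0.0096).

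Among 14 tested regulators of mitochondrial biogenesis 4 were higher and 1 lower with fAb, and 2 and 1 with oAb, shares close to or below those of all genes. Beside the lists of this paragraph, 27.6% of all genes were higher and 28.8% lower with fAb, and 25.2% and 27.0% with oAb. The deacetylase Sirt3 had 2.96, 2.40, 3.28 and 2.07 normalised CPM in fAb, 2.497, 2.26, 2.30 and 2.86 in oAb and 6.97, 6.93, 8.40 and 5.83 in scramble, with fold changes of -1.35 ± 0.18 and -1.50 ± 0.16 (adjusted p = 0.00022 and 4.8e-05). Gabpb1, a subunit of the ETS factor GABP, rose by 0.45 and 0.39 (0.0026 and 0.0085). With upper quartile scaling the Gabpb1 call was lost with oAb (0.083). Ppargc1b was not called (0.48 and 0.48; 0.11 and 0.083), but passed with fAb under the replicate block (0.040) and, in both comparisons, without scramble library 4 (0.73 and 0.74; adjusted p = 0.011 and 0.0033). Import genes were 4 higher and 6 lower of 23 with fAb and 4 and 3 with oAb, and of 78 mitoribosomal proteins 3 were higher and 18 lower with fAb, and 2 and 10 with oAb. These shares lay below those of all genes. Without scramble library 3 the mitoribosome counts were 21 higher and 22 lower with fAb, and 22 and 12 with oAb, shares below the 34.2% higher and 33.8% lower, and 31.4% and 32.9%, of all genes in those fits. Cytosolic ribosomal proteins, a measure of library composition here, were 2 higher and 14 lower of 80 with fAb and 1 and 2 with oAb, with medians of -0.37 and -0.30, or -0.10 and -0.03 without scramble library 3. With all libraries their shares called were also below those of all genes.

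The tricarboxylic acid cycle, which supplies the chain with electrons, had 5 of 17 genes higher and 4 lower with fAb, and 3 and 4 with oAb, shares close to or below those of all genes. Fh1, fumarase, fell, at -0.78 and -0.76 (adjusted p = 0.00069 and 0.00077), and Dld, the dehydrogenase shared by the oxoacid complexes, rose by 0.55 and 0.42 (0.00035 and 0.0029). Of 11 tested modulators of respiration in macrophages 7 were higher and 2 lower with fAb, and 7 and 3 with oAb. The shares of all genes were 27.6% higher and 28.8% lower with fAb, and 25.2% and 27.0% with oAb. Acod1, which makes itaconate, had 5452, 5605, 6009 and 5920.2 normalised CPM in fAb, 5352, 5445, 6296 and 6420.1 in oAb and 5.87, 6.33, 6.59 and 9.49 in scramble, a rise of 9.70 and 9.70 on the log2 scale (1.8e-09 and 2.5e-09). Nos2, the inducible nitric oxide synthase, had 227, 222, 261 and 250.4 in fAb and 273, 273, 270.3 and 301 in oAb, against 1 count in all scramble libraries together. Sod2, the superoxide dismutase of the mitochondrial matrix, rose by 3.05 and 3.08, and Ucp2, a carrier of the inner membrane, fell, at -1.12 and -0.95 (0.00083 and 0.0014). The fAb call of Ucp2 was lost with the set term (-0.69, 0.054). The levels of proteins and of respiration were not measured here.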

How the data were processed

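Libraries of the 12 samples, 4 each of fAb, oAb and scramble, were made with a stranded mRNA kit, per the labels' protocols. The file headers say that reads were trimmed, and the submitters' processing notes name mm10 as the build. Which aligner and counter were run, and whether strand was used, is not given here, so a gene and its antisense or overlapping partner cannot be told apart. Each of 2 tables that the authors deposited held raw counts per gene, RPKM, TPM and a signal named CPM that they scaled to a normalised library size, per the file headers. The scramble counts and TPM were identical in both. Counts were tested, TPM gave levels between genes, and the RPKM and signal columns and the authors' own fold changes and p-values were not used.

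Each comparison was fitted on its own 8 libraries with edgeR 4.0.16 in R 4.3.3 (TMM, filterByExpr with a minimum count of 10, robust quasi-likelihood), with Benjamini-Hochberg adjustment over all genes tested and a threshold of 0.05, and checked on simulated counts. Alternatives were other scalings, no filter, DESeq2 1.42.0, a joint fit of all 12 libraries, a replicate block, the library set as a term and each library left out. Fits within 1 set, and the set term without scramble library 3, were added after seeing the data. Same-numbered fAb and scramble libraries deviated together weakly (r = 0.22, 0.20, 0.29 and 0.15), and fAb library 3 alone was closest to the scramble library of its own number. The main fits used no pairs, the replicate block was an alternative only, and the labels give no reason for pairing. Coordinates are those of the deposited tables. Promoters came from RefSeq, and copies were found as 50-base words of a gene that occur in another gene. Values of Timm23 and Gm10273 define the sets. The genes and lists were chosen with earlier results of these data known. Named with values are all mitochondrial members, the 2 nuclear members of smallest adjusted p per class and direction, fixed isoform sets, complex II, the leading genes of each list and a fixed set of regulators. A gene that this rule names is not reported here.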

Additional observations from a re-analysis of the deposited data

Results flagged for a closer look

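In 6 of 137 groups of 4 libraries that were examined, all of them scramble groups, library 3 lay far from the other libraries by Dixon's test, at a level where chance marks about 1 group in 20. Scramble library 3 had 328.5 normalised CPM of Cox7a2l, where the other scramble libraries had 201 to 209. For Cox4i1 it had 591 normalised CPM and the others 313 to 336, and for Ndufa4 208 and 118 to 132. For Cox6b1 it had 246 and the others 137 to 147, for Atp5g1 333 and 163 to 185, and for Cox7a2 174 and 89.2 to 99.8. All 6 are nuclear members and all are high in that library. Of these genes Cox7a2l was called lower with fAb and with oAb, with and without the library.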

How the results depend on the processing

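Counts of calls moved with the library set, with scramble library 3 and with scaling. Where no share of all genes is given above, as for the joint fit, these counts do not set members apart from other genes. In fAb against scramble, 2 nuclear members were higher, and 1 was with upper quartile scaling, with no filter, with the replicate block and with the set term, while within the Gm10273 set 4 were and on leaving out 1 library 1 to 5. The 34 lower became 64 with upper quartile scaling, 60 in the joint fit, 1 with the set term, 12 within the Gm10273 set, 13 with the set term leaving out scramble library 3, and 16 to 52 on leaving out 1 library. The nuclear median of -0.47 became -0.0923 with the set term, -0.0839 within the Gm10273 set and -0.0915 with the set term leaving out library 3. For mitochondrial members the 10 lower became 5 with the set term, and their median of -0.51 became -0.70 with upper quartile scaling.

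In oAb against scramble, 15 nuclear members were lower, and 8 were with DESeq2 size factors, 41 with upper quartile scaling, 26 in the joint fit, 7 with the replicate block, 6 with the set term, 2 within the Timm23 set, 27 with the set term leaving out library 3 and 4 to 31 on leaving out 1 library. The 1 higher became 12 within the Gm10273 set, 5 with the set term leaving out library 3 and 1 to 3 on leaving out 1 library, and the nuclear median of -0.38 became 0.0051 within the Gm10273 set. For mitochondrial members the 7 lower became 11 with upper quartile scaling, 3 within the Timm23 set and 12 with the set term leaving out library 3, and 1 was higher within the Gm10273 set. The mitochondrial median of -0.44 became -0.61 with upper quartile scaling and -0.56 within the Timm23 set. The cause of these shifts was not tested, and the fits within a set also have fewer libraries.

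Signs turned for the genes that follow, and the cause was not tested. With fAb the set term, the Gm10273 set and the set term leaving out library 3 gave 0.11, 0.12 and 0.11 for Atp5d, 0.12, 0.13 and 0.12 for Atp5g1, 0.15, 0.16 and 0.15 for Atp5g3, 0.0714, 0.0801 and 0.0724 for Cox7a2, 0.0964, 0.10 and 0.0974 for Cyc1, 0.0664, 0.0737 and 0.0653 for Ndufaf8, 0.86, 0.87 and 0.86 for mt-Nd6, and -0.49, -0.48 and -0.49 for mt-Atp8, which upper quartile scaling put at -0.10. mt-Nd6 was at 0.0023 with DESeq2 size factors, 0.0091 with DESeq2 and 0.0502 with the block. With oAb the Gm10273 set gave 0.36 for Atp5d, 0.32 for Atp5g1, 0.24 for Atp5g3, 0.001 for Cox5b, 0.0435 for Cox6a1, 0.18 for Cox7a2, 0.19 for Cyc1, 0.20 for Ndufaf8, 0.0345 for Sdhd, 0.0699 for mt-Co3, 1.11 for mt-Nd6 and -0.31 for mt-Atp8. The set term leaving out library 3 gave 0.0194 for Atp5d, 0.15 for Atp5g1, 0.0872 for Atp5g3, 0.0961 for Cox7a2, 0.12 for Cyc1, -0.37 for mt-Atp8, the set term -0.12 for mt-Atp8, and upper quartile scaling -0.15 for mt-Atp8 and -0.0089 for Sdhaf2. In fAb against oAb mt-Nd6 was at -0.26 with the set term and -0.25 within the Gm10273 set. On leaving out 1 library the ranges that crossed 0 were, with fAb, -0.34 to 0.089 for Atp5g1, -0.24 to 0.14 for Cox7a2, -0.29 to 0.0031 for Cyc1, -0.18 to 0.0063 for Sdhd, -0.21 to 0.33 for mt-Atp8, -0.37 to 0.30 for mt-Nd6, with oAb -0.24 to 0.17 for Atp5g1, -0.37 to 0.0257 for Atp5g3, -0.25 to 0.13 for Cox7a2, -0.17 to 0.10 for Cyc1, -0.29 to 0.28 for mt-Atp8, -0.54 to 0.041 for mt-Nd6, and -0.14 to 0.49 for mt-Nd6 between the preparations.

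Of 1368 values of 76 named genes with fAb, 1207 kept sign and call, and of 1444 with oAb 1233 did. On leaving out 1 library the difference in the ratio of mitochondrial to nuclear counts ran from -0.89 to -0.29 with fAb and from -0.89 to -0.29 with oAb, and that in the nuclear share from -0.51 to -0.32 and from -0.47 to -0.28 percentage points. Between same-numbered oAb and scramble libraries the deviations did not go together (r = -0.27, 0.07, -0.28 and 0.03), nor between fAb and oAb (0.33, -0.29, -0.07 and 0.14), so the replicate block there groups libraries by number alone and changed no call between the preparations. Too few counts left 8 nuclear members untested.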
